A study of Homo sapiens with 40 samples.

Results

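The clustered protocadherin beta genes were followed in U2OS cells, a human osteosarcoma line, and in hTERT-RPE1 cells, retinal pigment epithelial cells immortalized with telomerase. The 10 members, by symbol and identifier, were PCDHB2 (ENSG00000112852_at), PCDHB3 (ENSG00000113205_at), PCDHB4 (ENSG00000081818_at), PCDHB5 (ENSG00000113209_at), PCDHB6 (ENSG00000113211_at), PCDHB7 (ENSG00000113212_at), PCDHB8 (ENSG00000120322_at), PCDHB10 (ENSG00000120324_at), PCDHB14 (ENSG00000120327_at) and PCDHB15 (ENSG00000113248_at). They were taken from a given list of identifiers, and all 10 were among the 22069 genes of the arrays. The list was chosen by the change of PCDHB5 under the siRNAs in these same arrays, so PCDHB5 is described with no test, and the question asked of the other 9 was whether they moved with it. Only PCDHB5 was paired with its symbol in the authors' own tables, so the names of the other 9 rest on the given list.

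Total RNA from 40 cultures in 16 groups was hybridized to Affymetrix human whole-transcript arrays, and each value is a log2 expression level, 1 per gene and array. On days 1 and 2 after transfection each line had received 15 nM of control siRNA (AllStars Negative Control) or of CASP8AP2 siRNA, with 3 arrays per group. On day 3 each line had received control, CASP8AP2, NPAT or HINFP siRNA at the same dose, with 2 arrays per group. The siRNA against each gene was a mixture of 4 siRNAs, and by the methods both cultures of a day 3 group were transfected together, so the p-values of that day measure the spread between such cultures only. Days 1 and 2 (24 arrays) and day 3 (16 arrays) were analysed apart, since the array medians lay between 5.44 and 5.67 in the first set and between 5.23 and 5.38 in the second.

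CASP8AP2, NPAT and HINFP are nuclear proteins that act on the transcription of histone genes in S phase. In every knockdown the targeted gene was lower than in control cells. For CASP8AP2 the log2 fold changes on days 1, 2 and 3 were -1.30, -1.73 and -1.18 in U2OS cells. In hTERT-RPE1 cells they were -0.85, -0.76 and -0.77 (limma, highest adjusted p of the 6 = 0.000821). They were -1.59 in U2OS and -1.31 in hTERT-RPE1 cells for NPAT, and -1.64 and -1.05 for HINFP. The targeted gene thus fell further in U2OS cells under each siRNA. Of 30 markers of retinal pigment epithelium, osteoblasts and neurons only 5 were paired with a symbol. These were too few to check the lines against their labels. BEST1 and RLBP1, markers of retinal pigment epithelium, lay between 3.49 and 4.67 in both lines. RUNX2, a transcription factor of osteoblasts, went against the labels, with 7.17 to 8.36 in U2OS and 8.62 to 9.84 in hTERT-RPE1 cells, and IBSP, also of osteoblasts, and ELAVL4, of neurons, lay between 2.96 and 4.44. RUNX2 was higher in U2OS cells with CASP8AP2 siRNA on day 2 (0.46 ± 0.12, adjusted p = 0.00526) and lower in hTERT-RPE1 cells with NPAT siRNA (-0.95 ± 0.19, adjusted p = 0.0138).

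Clustered protocadherins are cadherin-related cell surface proteins that mediate recognition between cells, best known from neurons, in which each cell expresses its own combination. The genes stand in 3 neighbouring clusters on chromosome 5, named alpha, beta and gamma. Each beta gene has a promoter of its own and is essentially a single coding exon, unlike the alpha and gamma genes, whose variable exons are spliced to shared ones. Most clustered protocadherin promoters carry a conserved sequence element that CTCF binds, and CTCF and cohesin bring chosen promoters to distant enhancers. The beta genes are much alike in sequence, so a probe of one member can take up RNA of another, and how far it did so here was not tested.

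The promoters are shown because they are what the members share outside the expression values. RefSeq promoter windows (GRCh38.p14, from 250 bases before to 50 bases after each start) were at hand for 9 of the 10 members, PCDHB6 excepted. All 9 held the run GGTGGCGCT once on the strand of the gene, beginning 2 (PCDHB8) to 84 (PCDHB4) bases before the start, with a median of 67. In each 36-base stretch below, 5′ to 3′ on the plus strand of chromosome 5, that run is in capitals:

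PCDHB2, chr5:141094543-141094578: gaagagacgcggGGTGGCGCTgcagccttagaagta

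PCDHB3, chr5:141100392-141100427: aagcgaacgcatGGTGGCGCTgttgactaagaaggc

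PCDHB4, chr5:141121722-141121757: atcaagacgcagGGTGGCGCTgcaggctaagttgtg

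PCDHB5, chr5:141135178-141135213: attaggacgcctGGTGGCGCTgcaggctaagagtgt

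PCDHB7, chr5:141172565-141172600: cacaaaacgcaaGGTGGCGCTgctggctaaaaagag

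PCDHB8, chr5:141177776-141177811: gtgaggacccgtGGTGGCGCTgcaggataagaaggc

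PCDHB10, chr5:141192298-141192333: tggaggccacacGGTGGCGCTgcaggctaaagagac

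PCDHB14, chr5:141223262-141223297: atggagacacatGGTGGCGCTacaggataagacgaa

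PCDHB15, chr5:141245313-141245348: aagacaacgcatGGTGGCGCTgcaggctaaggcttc

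The run is the longest that all 9 windows share, and was so found from these windows. Searched on both strands, it stood in 176 of the 35116 promoters of the table (0.501%). Among other clustered genes it stood in 4 of 5 further beta promoters, in 0 of 13 alpha promoters and in 0 of 25 gamma promoters. It overlaps the letters CGCT, the known core of the conserved element, which by themselves were in 70.0% of all promoters and in all 9 of these. Neither GGGCGG, the core of a GC box, nor TATAAA, the TATA box, was found in any of the 9 windows, against 45.0% and 11.5% of all promoters.

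Outside the shared run the 9 stretches differed, but not at every position: on both sides some single letters were the same in all 9. The longer run GGTGGCGCTGCAG was common to 6 of the members (PCDHB2, PCDHB4, PCDHB5, PCDHB8, PCDHB10 and PCDHB15). PCDHB4, PCDHB5, PCDHB10 and PCDHB15 shared 18 letters, GGTGGCGCTGCAGGCTAA, which no other promoter of the table held. These matches are a description of letters, and binding was not measured.

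The members fell into 2 sets by level. PCDHB3, PCDHB4, PCDHB6 and PCDHB7 lay between 2.89 and 3.92 in all 40 arrays, between the 6.38th and the 27.6th percentile of the genes of their array, and no comparison of any kind called one of them. So near the bottom little room is left for a fall. The plot of all values shows these 4 as flat lines in both cell types. PCDHB2, PCDHB5, PCDHB8, PCDHB10, PCDHB14 and PCDHB15 were above that range in at least some groups, and changes of single genes are read mainly from these 6. The counts and medians over the 9 members other than PCDHB5 still include the 4 genes at the bottom. Because probes differ between genes, levels were compared between samples only.

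**Figure D1:**
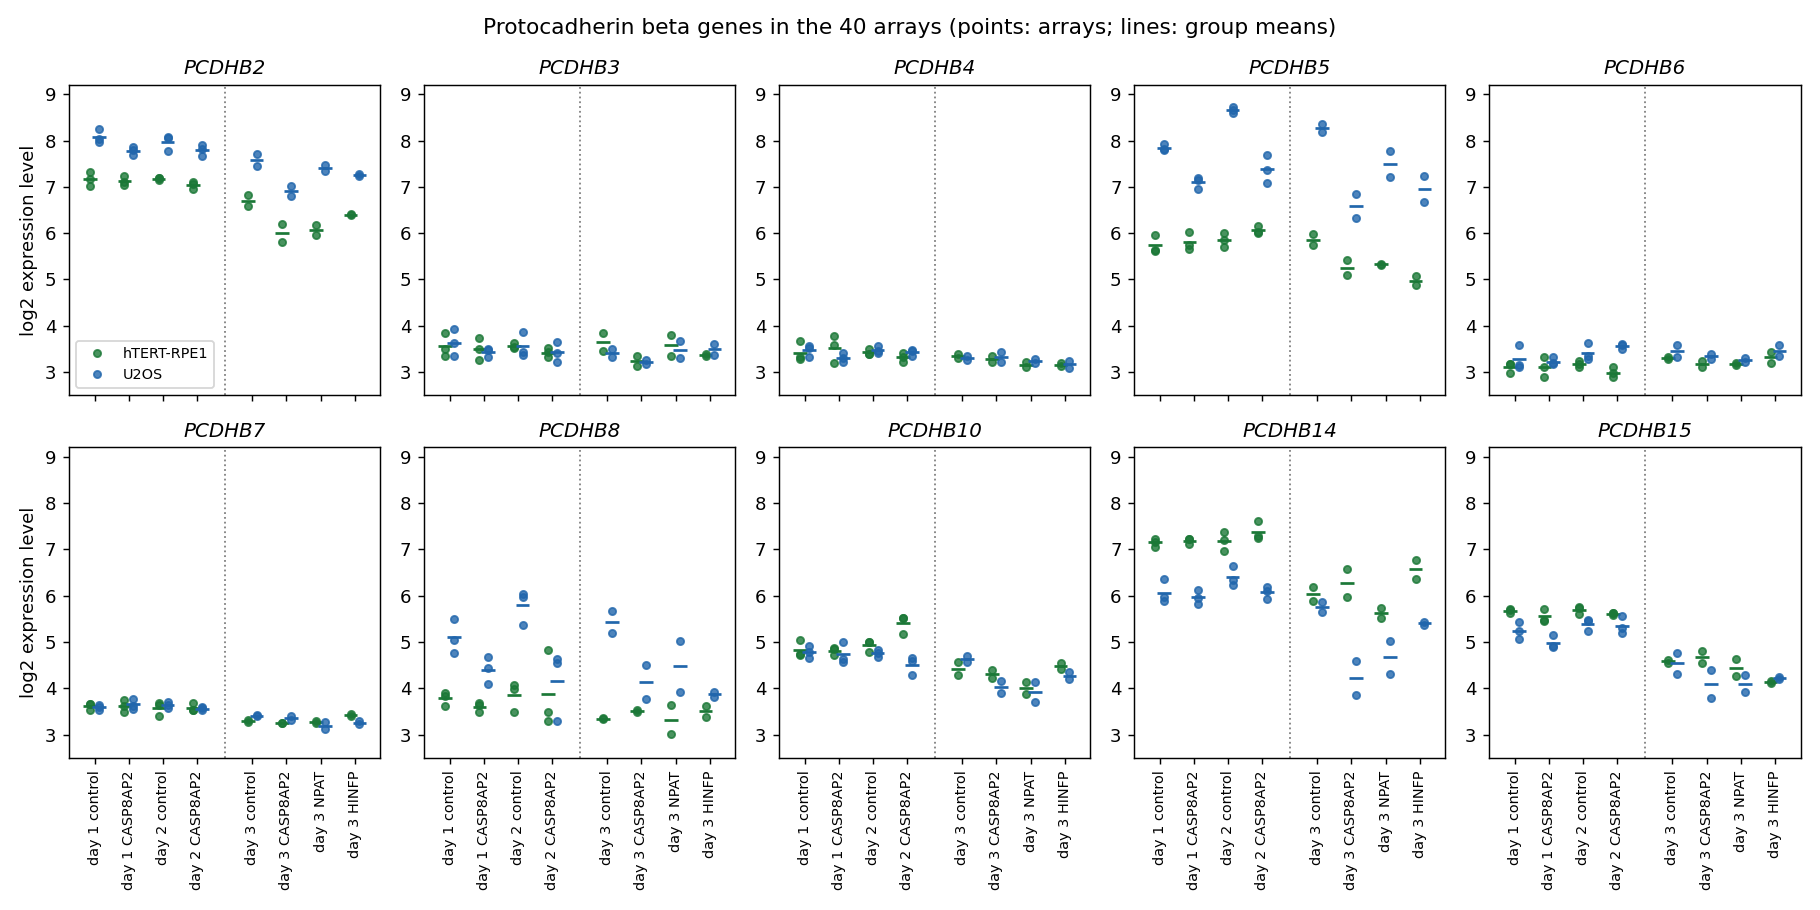
Log2 expression level (y axis) of the 10 protocadherin beta genes in each of the 40 arrays, by day and siRNA (x axis), in hTERT-RPE1 (green) and U2OS cells (blue). Points are arrays, short lines are group means, and the dotted line separates the sets of days 1 and 2 and of day 3. PCDHB5 lay between 6.34 and 8.71 in U2OS cells, above all hTERT-RPE1 arrays, while PCDHB3, PCDHB4, PCDHB6 and PCDHB7 stayed between 2.89 and 3.92 throughout.

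PCDHB5 itself separated the cell lines completely. It lay between 6.34 and 8.71 in the 20 U2OS arrays and between 4.88 and 6.16 in the 20 hTERT-RPE1 arrays. On days 1 and 2 the highest group was the U2OS control of day 2 (8.66 ± 0.06, SD, n = 3), followed by the U2OS control of day 1 (7.84 ± 0.07). The U2OS cells with CASP8AP2 siRNA came next, on day 2 (7.38 ± 0.29) and day 1 (7.10 ± 0.14), and these overlapped each other. The 4 hTERT-RPE1 groups of those days had means from 5.74 to 6.07. The highest of them, CASP8AP2 siRNA on day 2 (6.01 to 6.16), stood just above the control of that day (5.69 to 6.00), and the other neighbours overlapped.

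On day 3 the order of PCDHB5 in U2OS cells ran from control (8.18 and 8.35) through NPAT siRNA (7.20 and 7.77) and HINFP siRNA (7.23 and 6.66) to CASP8AP2 siRNA (6.34 and 6.83). Each siRNA group lay below the control, and neighbours among the 3 siRNA groups overlapped. In hTERT-RPE1 cells control came first again (5.74 and 5.99), NPAT siRNA (5.32 and 5.33) lay inside the range of CASP8AP2 siRNA (5.09 and 5.41), and HINFP siRNA was last (4.88 and 5.07).

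Control cells were compared first, to ask which members share the difference of PCDHB5 between the lines. PCDHB5 was higher in U2OS by 2.11, 2.81 and 2.40 on the log2 scale on days 1, 2 and 3. PCDHB2 and PCDHB8 were higher in U2OS too, and PCDHB14 and PCDHB15 went the other way. Of the 9 other members 2 were called higher and 2 lower on day 1, where 26% of all genes were called higher and 22.7% lower (limma, adjusted p under 0.05). The counts on day 2 were 2 and 2 (27.1% and 23.7% of all genes), and on day 3 they were 2 and 0 (23.3% and 20.5%). The counts of 2 of 9 are near these shares.

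PCDHB8 differed most among the 9. On day 3 the U2OS control arrays read 5.20 and 5.67 and the hTERT-RPE1 control arrays 3.36 and 3.33. PCDHB8 lay within the range of the 4 genes at the bottom in 17 of the 20 hTERT-RPE1 arrays and in 4 of the 20 U2OS arrays, so its differences between the lines may be read as lower bounds. The difference was 2.09 ± 0.32 (SE, adjusted p = 9.69e-05). Before that it was 1.32 ± 0.34 (day 1, adjusted p = 0.00245) and 1.94 ± 0.34 (day 2, adjusted p = 4.58e-05). PCDHB2 was higher in U2OS controls by 0.91, 0.78 and 0.87 on days 1, 2 and 3, with adjusted p from 3.3e-08 to 0.000171.

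PCDHB14 read 6.35, 5.96 and 5.88 in U2OS control cells of day 1 and 7.16, 7.06 and 7.23 in hTERT-RPE1 control cells. The lines did not overlap, and PCDHB14 was lower in U2OS by 1.08 ± 0.13 (SE, adjusted p = 3.98e-07). On day 2 the difference was -0.78 ± 0.13 (adjusted p = 3.03e-05). The day 3 difference was -0.29, with a 95% interval of the fit reaching past 0 (adjusted p = 0.419). PCDHB15 was also lower in U2OS on days 1 and 2, with differences of -0.43 ± 0.10 (day 1, adjusted p = 0.00102) and -0.30 ± 0.10 (day 2, adjusted p = 0.0154). On day 3 it was not called, with control means of 4.54 in U2OS and 4.59 in hTERT-RPE1 cells. The day 2 call was lost without hTERT-RPE1 control array 1 or U2OS control array 3 (highest adjusted p = 0.0954) and with all 40 arrays in 1 fit (adjusted p = 0.0619).

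From day 1 to day 2 under control siRNA, PCDHB5 went from 7.92, 7.79 and 7.82 to 8.71, 8.60 and 8.66 in U2OS cells, a difference of 0.82, and from a mean of 5.74 to 5.85 in hTERT-RPE1 cells. None of the 9 other members was called in either line, against 13% of all genes in U2OS and 10% in hTERT-RPE1 cells. At an unadjusted p under 0.05 there was 1, PCDHB14 in U2OS cells (0.33 ± 0.13). The nearest in size was PCDHB8 in U2OS cells, at 0.68 ± 0.34 (adjusted p = 0.228).

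CASP8AP2 siRNA in U2OS cells was followed over 3 days. PCDHB5 stood at 59.8%, 41.2% and 31.2% of the control of the same day on days 1, 2 and 3 (log2 fold changes of -0.74 ± 0.12, -1.28 ± 0.12 and -1.68 ± 0.22, SE). Among the genes that were called and had a symbol, the targeted gene left out, it was the 4th largest fall on day 1, the largest on day 2 and the 2nd largest on day 3. Since that rank is a way in which PCDHB5 can have been picked, all members are given for days 2 and 3 as a description with no test.

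On day 1 limma called none of the 9 others, where 5.87% of all genes were called. PCDHB2 and PCDHB15 had an unadjusted p under 0.05. PCDHB8 read 5.51, 5.05 and 4.77 in control and 4.10, 4.43 and 4.68 in CASP8AP2 siRNA cells. The groups did not overlap, but the spread was wide: -0.71 ± 0.34 with a 95% interval of the fit from -1.42 to 0.00 (adjusted p = 0.287). PCDHB2 had -0.30 ± 0.09 (adjusted p = 0.0656), and the other 7 lay between -0.26 and 0.05.

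On day 2, PCDHB8 read 5.98, 6.03 and 5.37 in control cells and 3.30, 4.56 and 4.64 with CASP8AP2 siRNA, so every siRNA array was below every control array. Its log2 fold change was -1.63 ± 0.34, 32.4% of control, and -1.20 without siRNA array 1, the lowest. PCDHB14 read 6.23, 6.33 and 6.65 in control and 6.10, 5.92 and 6.18 with the siRNA, a change of -0.33 ± 0.13. PCDHB10 had -0.25 ± 0.12, PCDHB2 -0.16 ± 0.09 and PCDHB15 -0.04 ± 0.10. Of the 9, PCDHB8 alone had an adjusted p under 0.05, where 13.1% of all genes did so with a fall, and nothing is read from that count.

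On day 3 of CASP8AP2 siRNA, PCDHB14 had the largest change among the 9 in U2OS cells. PCDHB14 read 5.65 and 5.86 in control cells and 3.86 and 4.58 with the siRNA, a log2 fold change of -1.53 ± 0.27 (34.7% of control). PCDHB8 went from 5.20 and 5.67 to 3.77 and 4.50 (-1.30 ± 0.32). PCDHB2 went from 7.44 and 7.70 to 6.80 and 7.02 (-0.66 ± 0.14), and PCDHB10 from 4.56 and 4.71 to 3.90 and 4.16 (-0.61 ± 0.16).

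In these 4 genes and in PCDHB5 the siRNA arrays lay below both control arrays. The share of all genes with that order was not counted, so nothing is read from the number of members in it. PCDHB15 read 4.30 and 4.77 in control and 3.79 and 4.40 with the siRNA, with overlap (-0.44 ± 0.20), and the 4 genes at the bottom of the range lay between -0.18 and 0.02. The 4 named genes had an adjusted p under 0.05, where 11% of all genes did so with a fall, and nothing is read from that count. The median of the 9 was -0.44, beside 0.02 for all genes. With CASP8AP2 siRNA in U2OS cells it was -0.16 on day 1 and -0.12 on day 2. On day 3 it was -0.21 with NPAT and -0.31 with HINFP siRNA in that line. In hTERT-RPE1 cells it ran from -0.14 (NPAT siRNA, day 3) to 0.01 (HINFP siRNA, day 3). In such bulk RNA fewer cells that express a gene and less of its RNA per cell cannot be told apart.

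**Figure D2:**
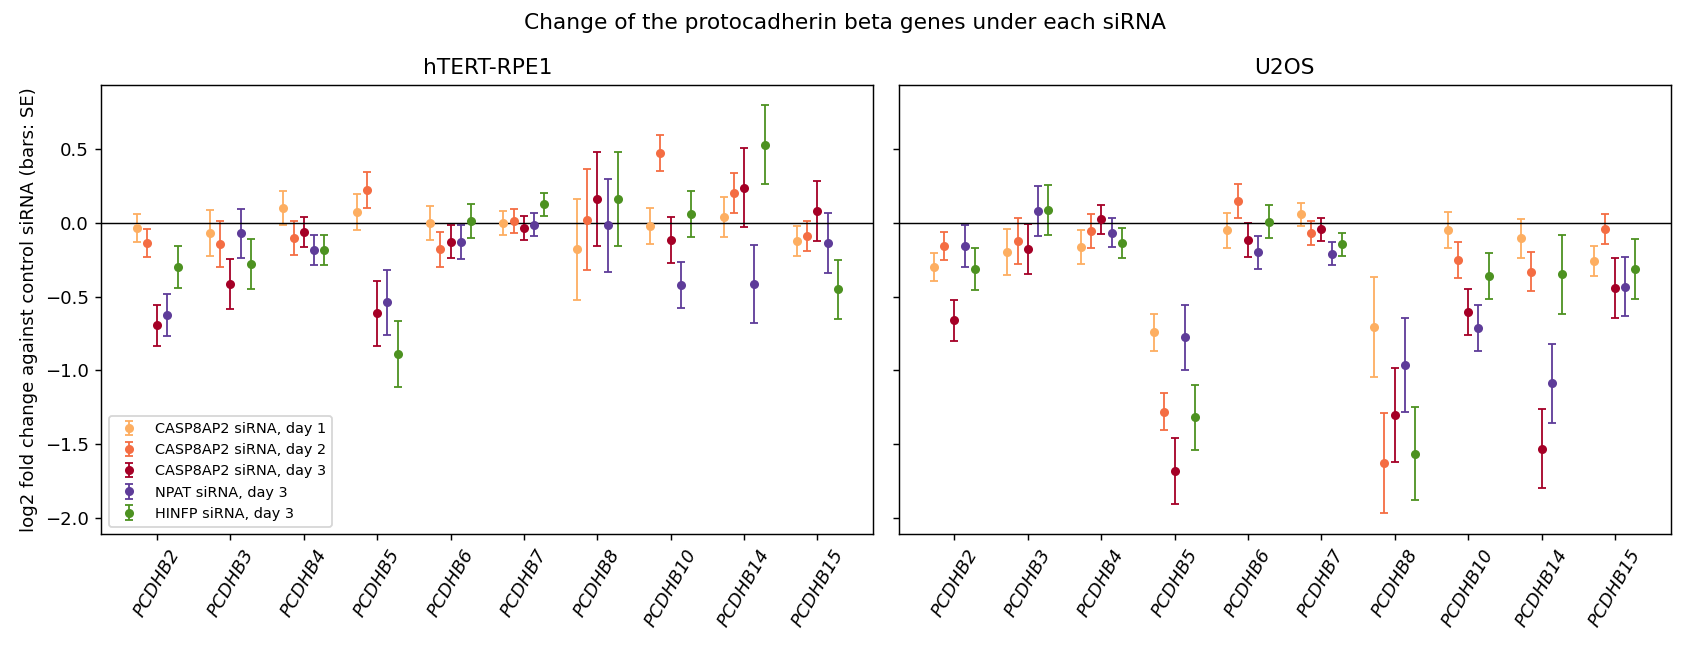
Log2 fold change against control siRNA of the same line and day (y axis; bars are SE) for the 10 genes (x axis) in hTERT-RPE1 (left) and U2OS cells (right), by siRNA and day (colour). PCDHB2, PCDHB5, PCDHB8, PCDHB10, PCDHB14 and PCDHB15 lay below 0 under every siRNA and day in U2OS cells. There, under CASP8AP2 siRNA on day 3, PCDHB5 was lowest (-1.68), followed by PCDHB14 (-1.53). In hTERT-RPE1 cells PCDHB8 stayed between -0.18 and 0.16.

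The effects of day 2 and day 1 were compared directly within U2OS cells, and none of the 9 others was called (7.04% of all genes) or had an unadjusted p under 0.05. The difference for PCDHB8 was -0.92 ± 0.48 (adjusted p = 0.303). These p-values are not independent of the choice of the list, since PCDHB5 ranked among the 2 largest falls in U2OS cells on day 2. The corresponding comparison in hTERT-RPE1 cells also called none of the 9, against 0.652% of all genes, and 1 of them, PCDHB10, had an unadjusted p under 0.05.

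CASP8AP2 siRNA in hTERT-RPE1 cells left PCDHB5 near its control on days 1 and 2, with log2 fold changes of 0.07 ± 0.12 and 0.22 ± 0.12. On day 1 none of the 9 others was called (0.793% of all genes) or had an unadjusted p under 0.05. On day 2 PCDHB10 was the single call, and it was higher (4.25% of all genes were called higher). PCDHB10 read 4.79, 5.00 and 5.00 in control cells and 5.51, 5.18 and 5.52 with the siRNA, without overlap. The log2 fold change was 0.47 ± 0.12 (adjusted p = 0.0209), opposite in sign to the -0.25 of U2OS cells. That call was lost without control array 1, siRNA array 1 or siRNA array 3 (highest adjusted p = 0.107) and with only the compared groups in the fit (adjusted p = 0.0824). PCDHB8 varied most in this group, at 3.30, 3.49 and 4.82, around a control of 3.99, 4.07 and 3.49.

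On day 3 PCDHB5 was below its control in hTERT-RPE1 cells as well, by -0.61 ± 0.22, and PCDHB2 was the single call among the 9 (2.54% of all genes were called lower). PCDHB2 read 6.58 and 6.82 in control and 5.82 and 6.19 with CASP8AP2 siRNA. The log2 fold change was -0.69 ± 0.14 (adjusted p = 0.0106), with the groups apart. The call was lost without control array 2 or siRNA array 1 (highest adjusted p = 0.105) and with only the compared groups in the fit (adjusted p = 0.108). PCDHB14, which stood at 34.7% of control in U2OS cells, read 5.98 and 6.57 beside a control of 5.89 and 6.19 (0.24 ± 0.27, adjusted p = 0.702).

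NPAT siRNA and HINFP siRNA were applied on day 3 only, and in each line they share the control arrays with CASP8AP2 siRNA, so the comparisons are not independent. With NPAT siRNA in U2OS cells PCDHB5 had -0.78 ± 0.22. PCDHB10 and PCDHB14 were called lower, where 4.29% of all genes were. PCDHB14 read 4.32 and 5.01 beside 5.65 and 5.86 in control (-1.09 ± 0.27, adjusted p = 0.0256). PCDHB10 read 3.70 and 4.14 beside 4.56 and 4.71 (-0.71 ± 0.16, adjusted p = 0.0146).

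In both genes the groups were apart, and each call was lost without control array 1, control array 2 or NPAT array 1 (highest adjusted p = 0.124 for PCDHB10 and 0.200 for PCDHB14). PCDHB8 read 3.92 and 5.02, a wide pair, beside 5.20 and 5.67 (-0.96 ± 0.32, adjusted p = 0.0832).

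With HINFP siRNA in U2OS cells PCDHB5 had -1.32 ± 0.22 and PCDHB8 was the single call among the 9 (4.84% of all genes were called lower). PCDHB8 read 3.81 and 3.93 beside 5.20 and 5.67 in control cells. The log2 fold change was -1.56 ± 0.32 (33.8% of control, adjusted p = 0.00738). The call was lost without control array 2 (adjusted p = 0.0706). PCDHB14 read 5.44 and 5.36, a change of -0.35 ± 0.27 (adjusted p = 0.513), and PCDHB10 had -0.36 ± 0.16 (adjusted p = 0.180).

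In hTERT-RPE1 cells NPAT siRNA called PCDHB2 alone among the 9 (2.67% of all genes were called lower), beside a PCDHB5 change of -0.54 ± 0.22. PCDHB2 read 5.97 and 6.18 beside 6.58 and 6.82 in control (-0.63 ± 0.14, adjusted p = 0.0233), and the call was lost without control array 2 or either NPAT array (highest adjusted p = 0.198) and with only the compared groups in the fit (adjusted p = 0.101). HINFP siRNA gave PCDHB5 its largest change in this line, -0.89 ± 0.22, the 2nd largest fall among called genes with a symbol, so the rest is a description. PCDHB14 read 6.77 and 6.36 beside 5.89 and 6.19 (0.53 ± 0.27), PCDHB15 had -0.45 ± 0.20, PCDHB2 -0.30 ± 0.14 and PCDHB8 0.16 ± 0.32. None of the 9 had an adjusted p under 0.05, where 4.15% of all genes did.

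The siRNAs were also compared with each other on day 3, which leaves out the shared control arrays. In 6 such comparisons 1 member was called once. PCDHB14 was lower with CASP8AP2 than with HINFP siRNA in U2OS cells (-1.18 ± 0.27, adjusted p = 0.0227), where 3.16% of all genes were lower. Its arrays read 3.86 and 4.58 against 5.44 and 5.36. The call was lost without CASP8AP2 array 1 or either HINFP array (highest adjusted p = 0.227) and with only the compared groups in the fit (adjusted p = 0.104). PCDHB8 in the same comparison had 0.26 with a 95% interval of the fit from -0.43 to 0.94 (adjusted p = 0.713). The other 5 comparisons called none of the 9, against 3.5% (CASP8AP2 minus NPAT) and 4.04% (NPAT minus HINFP) of all genes in U2OS cells. In hTERT-RPE1 cells the shares of all genes were 2.38% (CASP8AP2 minus NPAT), 3.81% (CASP8AP2 minus HINFP) and 3.63% (NPAT minus HINFP). At an unadjusted p under 0.05 these 5 held, in the same order, 1, 2, 1, 2 and 3 of the 9.

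Whether an siRNA acted differently in the 2 lines was tested as the effect in U2OS minus the effect in hTERT-RPE1 cells. The targeted gene itself fell further in U2OS cells under each siRNA, and its part in such a difference was not tested. The 4 tested comparisons called 1 of the 9 members once. This was PCDHB14 under CASP8AP2 siRNA on day 3, where 5.5% of all genes were called lower: the effects were -1.53 and 0.24, and the difference was -1.76 ± 0.38 (adjusted p = 0.0126). This p is not independent of the choice of the list, since the U2OS comparison within it is one in which PCDHB5 ranked among the 2 largest falls. The same holds for the other differences on day 3 that contain CASP8AP2 siRNA in U2OS cells or HINFP siRNA in hTERT-RPE1 cells. The call was lost without hTERT-RPE1 siRNA array 2 or U2OS siRNA array 1 (highest adjusted p = 0.0573).

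PCDHB8 had differences of similar size that were not called. In hTERT-RPE1 cells on day 3 all 8 of its arrays (3.01 to 3.64) lay in the bottom range, where a fall could hardly be measured, so how its response differs between the lines cannot be read from these values. Under CASP8AP2 siRNA on day 3 its difference was -1.46, with a 95% interval of the fit from -2.43 to -0.50 (adjusted p = 0.0576). Under HINFP siRNA it was -1.72, with an interval from -2.69 to -0.76 (adjusted p = 0.0564). HINFP siRNA called 3.15% of all genes there and none of the 9, of which 3 had an unadjusted p under 0.05 (PCDHB7, PCDHB8 and PCDHB14). PCDHB2 had log2 fold changes of -0.66 and -0.69 under CASP8AP2 siRNA on day 3, and its difference was 0.03, with an interval from -0.40 to 0.46 (adjusted p = 0.941).

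None of the 9 was called for NPAT siRNA on day 3 (3.46% of all genes) or for CASP8AP2 siRNA on day 1 (0.689%). At an unadjusted p under 0.05 there was 1 in the former, PCDHB2, and 0 in the latter. For CASP8AP2 siRNA on day 2, described without a test because PCDHB5 was the 2nd largest fall there (-1.50 ± 0.18), PCDHB8 had -1.65 ± 0.48, PCDHB10 -0.72 ± 0.17 and PCDHB14 -0.53 ± 0.19, while PCDHB2 and PCDHB15 had -0.03 and 0.05. PCDHB8 and PCDHB10 had an adjusted p under 0.05, where 4.83% of all genes did so with a difference below 0, and nothing is read from that count.

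Likeness to PCDHB5 was then measured array by array, as Pearson's r and Spearman's rho over the arrays of 1 line in 1 set. These are descriptions: arrays of one group share a treatment and day, and all share the array scale. Within U2OS cells on days 1 and 2 (12 arrays) all 9 members had r above 0, from 0.03 to 0.74 with a median of 0.54, beside a median of -0.02 over all genes. PCDHB8 came first (r = 0.74, rho = 0.82, ahead of all but 4.85% of genes), then PCDHB14 (0.71, rho = 0.66) and PCDHB15 (0.61, rho = 0.58). The 2 arrays farthest from the median of PCDHB5 were control arrays 1 and 3 of day 2. Without them these r were 0.64, 0.59 and 0.63. Then 8 of the 9 members were above 0, the median was 0.40 and the lowest was -0.35 (PCDHB7). With all arrays PCDHB4, a gene at the bottom of the range, had 0.57 (rho = 0.55).

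On day 3 in U2OS cells (8 arrays) PCDHB2 (r = 0.89, rho = 0.86) and PCDHB8 (0.88, rho = 0.79) were the most alike, and PCDHB14 (0.73, rho = 0.79) and PCDHB10 (0.71, rho = 0.64) followed. The median of the 9 was 0.54, beside -0.06 for all genes. Here the 2 farthest arrays were both control arrays, so without them only arrays with a knockdown remain. Over those r was 0.84 for PCDHB2, 0.65 for PCDHB8 and 0.44 for PCDHB14. It was 0.18 for PCDHB10 and 0.05 for PCDHB15, lower than with the control arrays. Of the 9 then 6 were above 0, the median was 0.18 and the lowest was -0.66 (PCDHB6). With the group means taken out instead, over the day 3 arrays of both lines, r was 0.78 for PCDHB10 and 0.26 for PCDHB15.

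**Figure D3:**
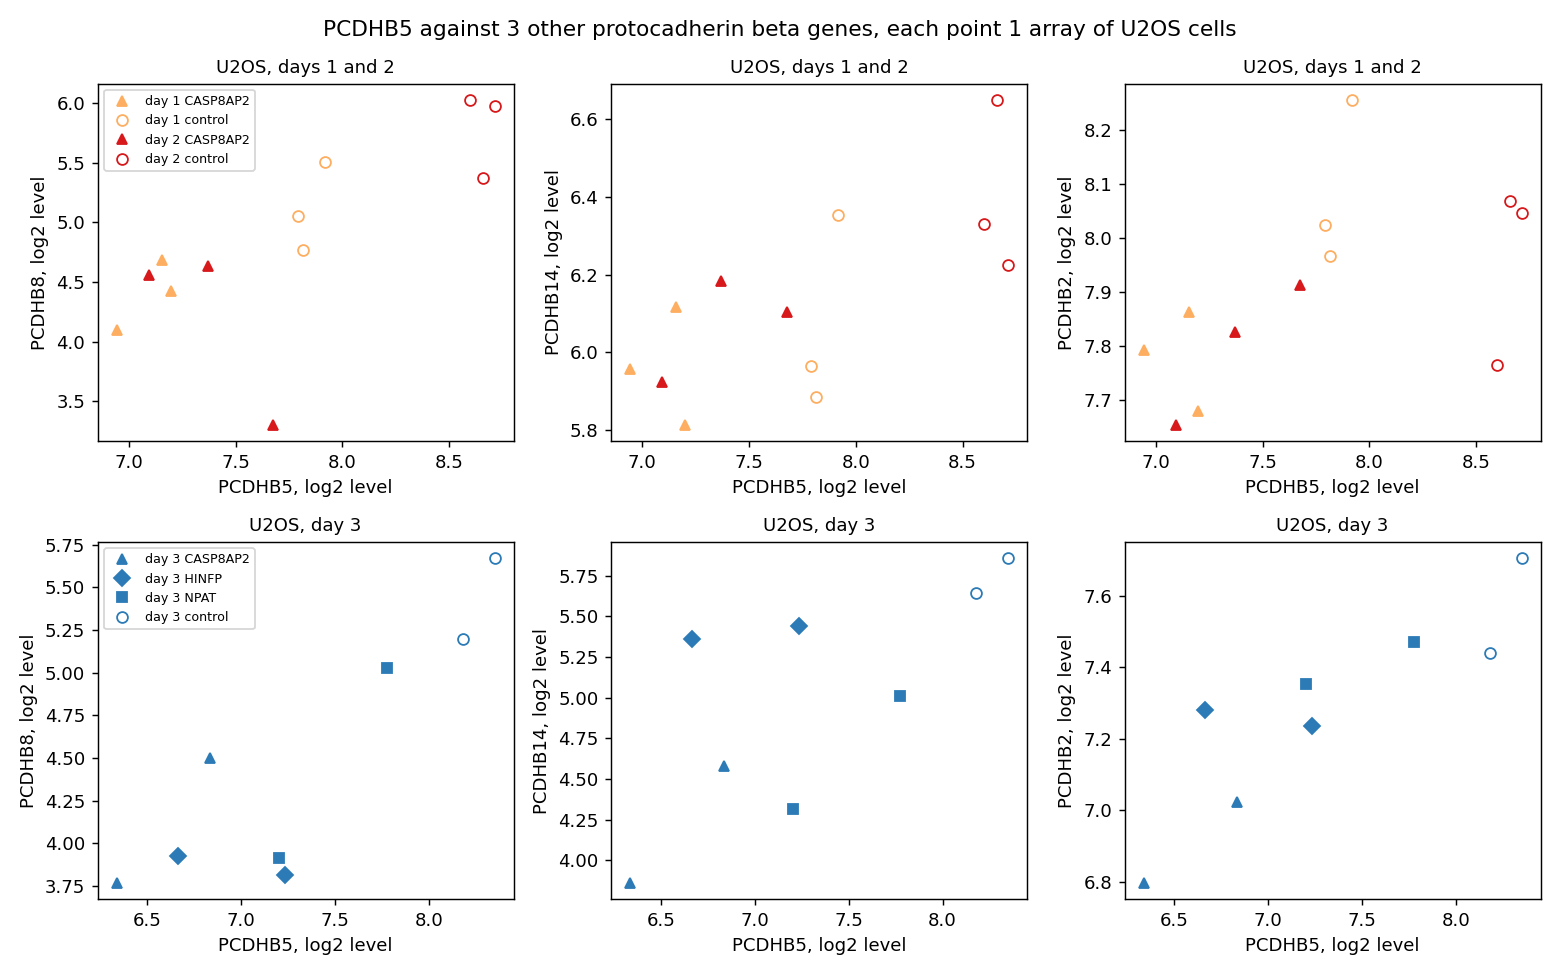
Log2 level of PCDHB8, PCDHB14 and PCDHB2 (y axes) against that of PCDHB5 (x axes) in U2OS cells, on days 1 and 2 (top, 12 arrays) and day 3 (bottom, 8 arrays), with axes fitted to each panel. Each point is 1 array, with control siRNA as open circles. Pearson's r was 0.74 (PCDHB8), 0.71 (PCDHB14) and 0.54 (PCDHB2) in the top row and 0.88, 0.73 and 0.89 in the bottom row.

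In hTERT-RPE1 cells the pattern was mixed. On days 1 and 2 (12 arrays), when PCDHB5 moved little, 4 of the 9 members had r above 0 and the median was -0.02. PCDHB10 was highest (0.55, rho = 0.58) and PCDHB2 lowest (-0.72, rho = -0.67). On day 3 (8 arrays) 6 of the 9 lay above 0 with a median of 0.28, and the median over all genes was 0.08. Without the 2 arrays farthest from the median of PCDHB5, 5 of the 9 lay above 0 with a median of 0.02. On days 1 and 2 the same step gave 5 of the 9 and 0.08. With all arrays PCDHB4 was highest (0.73, rho = 0.81), and PCDHB3 had 0.61 (rho = 0.45), both genes at the bottom of the range. PCDHB15 (0.62, rho = 0.79) and PCDHB2 (0.60, rho = 0.40) lay above 0 as well. PCDHB14 had -0.30 (rho = -0.31), and PCDHB8, whose arrays were all in the bottom range here, had -0.27 (rho = -0.36).

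**Figure D4:**
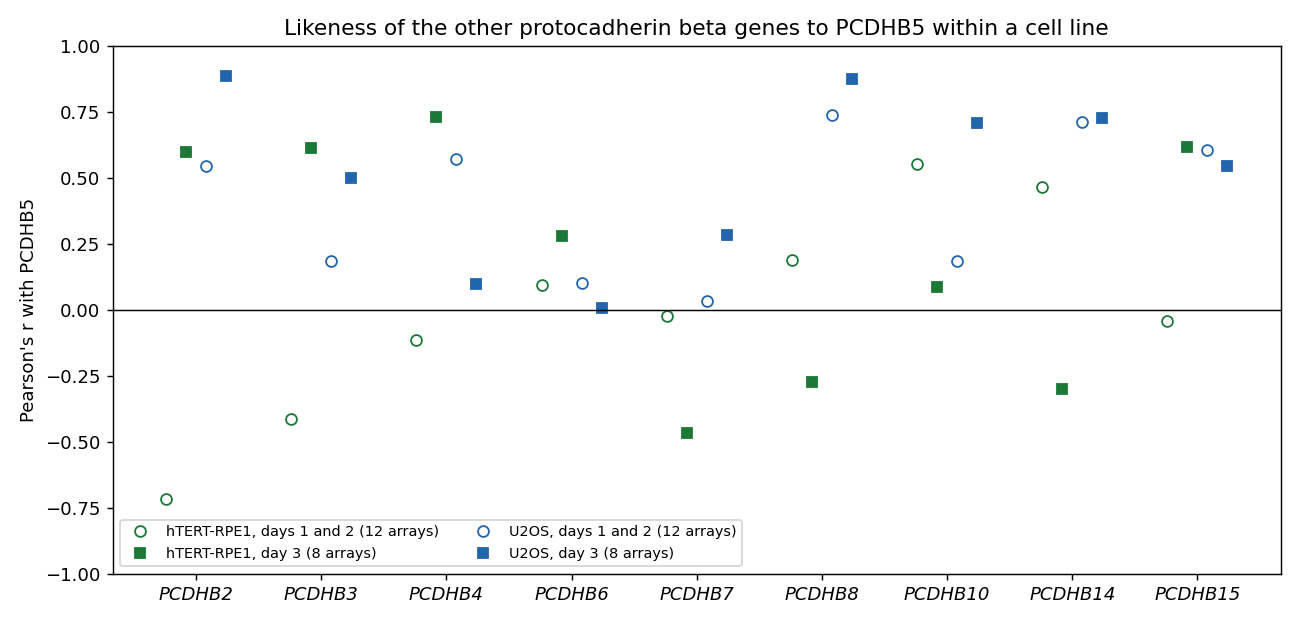
Pearson's r with PCDHB5 (y axis) for the other 9 protocadherin beta genes (x axis), over the arrays of hTERT-RPE1 (green) and U2OS cells (blue), on days 1 and 2 (open circles, 12 arrays) and day 3 (filled squares, 8 arrays). All U2OS points lie above 0 when every array is counted. Without the 2 farthest arrays, which were control arrays in both sets, 8 (days 1 and 2) and 6 (day 3) of 9 do. The hTERT-RPE1 points run from -0.72 (PCDHB2, days 1 and 2) to 0.73 (PCDHB4, day 3).

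With the group means taken out, so that only the spread between arrays of one group is left, the 2 sets differed. On days 1 and 2 (24 arrays) r with PCDHB5 ran from -0.33 to 0.39 with a median of 0.09. On day 3 (16 arrays) it ran from -0.21 to 0.78 with a median of 0.58, led by PCDHB10 (0.78) and PCDHB14 (0.74). The day 3 likeness within a line therefore also holds differences between duplicate arrays. The array numbered 2 was above the array numbered 1 in 7 of 8 groups for PCDHB2, PCDHB5 and PCDHB15, as it was in 7 or 8 groups for 4.76% of all genes. The array number did not follow this likeness gene by gene. For PCDHB10 and PCDHB14 array 2 was higher in 5 and 6 groups, and PCDHB15 had an r of 0.26.

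Over deviations from the mean of each line, the genes most like PCDHB5 on days 1 and 2 (24 arrays) were ENSG00000081177 (r = 0.90) and ENSG00000101938 (0.90), which were not paired with a symbol. Among genes with a symbol they were UQCRC2 (0.87), a subunit of mitochondrial complex III, RAB7L1 (0.85), a small GTPase, and AMZ2 (0.82), a metalloprotease. On day 3 (16 arrays) they were ENSG00000135119 (0.94) and ENSG00000079387 (0.93), and among genes with a symbol MAGED1 (0.92), RP11-369J21.6 (0.91) and MSH3 (0.89), a mismatch repair protein. PCDHB8 ranked 386th of 22068 genes on days 1 and 2 (r = 0.65) and 662nd on day 3 (r = 0.72).

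Other genes of the pathway were read from lists, of which only members paired with a symbol could be followed. Of 43 further clustered protocadherins 1 was paired, PCDHB1, which lay between 2.83 and 3.97 and was called in none of 10 siRNA comparisons. Of 14 protocadherins outside the clusters 5 were paired, and PCDH18 was lower in 4 comparisons, all in U2OS cells. It changed by -0.38, -0.84 and -0.80 with CASP8AP2 siRNA on days 1, 2 and 3 and by -0.90 with HINFP siRNA (highest adjusted p = 0.0192). Of all genes 5.87% were called on day 1, and 13.1%, 11% and 4.84% were called lower in the other comparisons. In hTERT-RPE1 cells with CASP8AP2 siRNA on day 3 PCDH18 went the other way without a call (0.67 ± 0.19, adjusted p = 0.0534). PCDH9, PCDH10, PCDH20 and PCDH21 were not called.

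Of 22 factors known to act at clustered protocadherin promoters 3 were paired. RAD21, a cohesin subunit, was lower in U2OS cells with CASP8AP2 siRNA on days 1, 2 and 3 (-0.32, -0.52 and -0.39, highest adjusted p = 0.00426). There 5.87% of all genes were called on day 1, and 13.1% and 11% were called lower on days 2 and 3. SMCHD1, a chromatin protein that acts in silencing, was higher in hTERT-RPE1 cells with NPAT siRNA (0.41 ± 0.11, adjusted p = 0.0477), and SMC1A was not called. Of 17 neighbours of the clusters on chromosome 5 there were 2 paired, SLC25A2 and CD14. CD14 was higher in U2OS cells with CASP8AP2 siRNA on day 3 (0.42 ± 0.13, adjusted p = 0.0368), near the bottom of the range at 3.70 beside 3.28 in control. Their part in the values of the beta genes was not tested.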

How the data were processed

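Log2 expression levels, 1 per Ensembl gene and array, were used as deposited. Per the labels the authors made these log2 values with RMA, and per their methods probes were grouped by custom Ensembl gene definitions, whose version and genome build are not given in the sources used here. Array means ran from 6.00 to 6.05 in the 24 arrays of days 1 and 2 and from 5.85 to 5.88 in those of day 3, so the sets were taken as normalized apart and fitted apart. No column of values was left unused, and 0 pairs of arrays were identical.

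Each set was fitted with limma 3.58.1 in R 4.3.3 (lmFit and eBayes, all 8 groups in 1 fit, 16 residual degrees of freedom on days 1 and 2 and 8 on day 3). P-values were two-sided and adjusted by Benjamini-Hochberg over all 22069 genes, and called means an adjusted p under 0.05. Intervals at the 95% level come from the same fit. The number of arrays limits the precision, and the fits were tested on simulated data.

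Symbols came from the authors' siRNA screen tables (1924 genes, 8.72%), without their values. The named genes were the 10 members, the targets, the genes most like PCDHB5 and called genes of the lists (protocadherins, promoter factors, neighbours and cell type markers). Members and lists were chosen with earlier results of these data known. All members were described without a test where PCDHB5 was among the 2 largest rises or falls. Alternatives were other samples in the fit, array centring, cyclic loess, a mean level of at least 5, a variance trend, a replicate block and leaving out each array.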

Additional observations from a re-analysis of the deposited data

Results flagged for a closer look

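Under CASP8AP2 siRNA on day 2, 4 members moved one way in every U2OS siRNA array and the other way in every hTERT-RPE1 siRNA array. Each array was set against the control mean of its line and day, and these differences were not tested. The share of all genes with such an order was not counted, so nothing is read from the number of members. PCDHB5 ranked among the 2 largest falls there and can have been picked for it. The effect in U2OS minus the effect in hTERT-RPE1 cells was -1.50 for PCDHB5, -0.72 for PCDHB10, -0.53 for PCDHB14 and 0.33 for PCDHB6, whose levels lay at the bottom of the range. On day 3 the tested difference for PCDHB14 was -1.76 ± 0.38 (limma, adjusted p = 0.0126). As given above, that p is not independent of the choice of the list, and the call depended on single arrays.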

How the results depend on the processing

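Of 18 calls of single members 13 were kept under all alternatives in which the gene was tested, 9 of them also with each array left out, and none reversed. Those 9 are all differences between control lines, and the 8 tested calls of an siRNA, an interaction or siRNAs against each other were each lost without at least 1 array. For CASP8AP2 siRNA in U2OS cells (days 2 and 3), described without a test, the counts are of an adjusted p under 0.05 and nothing is read from them. The 3 of the interaction are 1 tested call and 2 of the untested day 2. With only the compared groups in the fit, the calls among the 9 members went from 1 to 0 for hTERT-RPE1 cells with CASP8AP2 siRNA (day 2 and day 3), for NPAT siRNA in hTERT-RPE1 cells and for the comparisons between siRNAs. Keeping genes with a mean of at least 5 left 3 of the 9 members on days 1 and 2 and 2 on day 3. It removed PCDHB8 and PCDHB10, so their calls end by its construction. There the calls were 1 for U2OS cells with CASP8AP2 siRNA on day 1 (from 0) and 0 in hTERT-RPE1 cells on day 2, 2 in U2OS cells on day 3 (from 4), 1 for NPAT (from 2) and 0 for HINFP siRNA in U2OS cells (from 1), 1 for the interaction of siRNA and line (from 3) and 3 between siRNAs (from 1). A robust variance trend gave 1 call for U2OS cells with CASP8AP2 siRNA on day 1. Centring on the array median gave 2 on day 2 (from 1) and 5 for the interaction (from 3). All 40 arrays in 1 fit gave 5 between siRNAs (from 1), and lost PCDHB15 between day 2 controls. The other causes were not tested.

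The replicate numbers were not taken to pair the samples, since the deviations of same-numbered arrays did not correlate in every group: r was -0.10 to 0.06 in the first set and -0.07 to 0.21 on day 3, where it was over 0.1 in 3 of 6 siRNA groups. With the replicate block the calls were 0 for hTERT-RPE1 cells with CASP8AP2 siRNA on day 2 (from 1, with adjusted p = 0.0516 for PCDHB10) and 3 between siRNAs (from 1). The block could not be fitted between lines or between control days.

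With each array left out (on day 3 the array that then stands alone is taken to vary like the other groups) the calls ranged from 0 to 1 for hTERT-RPE1 cells with CASP8AP2 siRNA (day 2 and day 3), for NPAT siRNA in hTERT-RPE1 cells, for HINFP siRNA in U2OS cells, between siRNAs and between control days. They ranged from 1 to 2 and from 1 to 5 for U2OS cells with CASP8AP2 siRNA on day 2 and day 3, from 0 to 3 for NPAT siRNA in U2OS cells, from 2 to 4 for the interaction and from 9 to 10 between control lines.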
